A study of Macaca mulatta with 5 samples.

Results

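Solute carriers are membrane proteins that move amino acids, sugars, ions, metals, vitamins and transmitters across membranes. The genes described here carry a symbol of the form SLC, family number, A, member number. The mitochondrial family SLC25 was left out, and so were SLC18A2, SLC1A2, SLC1A3 and SLC2A1. Of 254 SLC symbols in the platform annotation 214 remained, and 113 of these reached a signal of 200 or more on at least 1 array, of 14132 named genes in all and 9769 under the same level filter. A gene was read from its brightest probe set, the group of short probes on the array that reports 1 transcript. Measured signals therefore chose the members, and the levels at which they passed are a description only.

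The arrays came from rhesus macaque embryonic stem cells of line 366.4, derived from a flushed embryo and carried through a staged culture meant to yield serotonin neurons. ESC was the undifferentiated culture at passage 13 on a layer of mouse embryonic fibroblasts, EB the embryoid bodies after 6 to 8 days, and N1 the spheres after 7 to 9 days in N2-supplemented medium. N2 had 7 to 9 further days with FGF4, a growth factor, and N3 was matured without FGF4 in wells the labels call GFR reduced. Each stage was 1 array from 1 cell line, so no value has a replicate, no difference could be tested, and the number of arrays limits the precision.

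Carriers work either as uniporters that let a substrate run down its gradient or as transporters that couple it to sodium, protons or an exchanged ion. Growing cells take up glutamine, arginine and glucose in this way and export lactate. Neurons use carriers to load synaptic vesicles and to hold chloride and calcium low, and absorptive epithelia such as yolk sac, kidney and gut use them to take up nutrients.

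Signals were scaled to a common array level and set to a floor of 100 before ratios were taken. A ratio with 1 side under the floor is a lower bound, written "at least", and no ratio is given with both sides under it. Levels are compared between arrays for the same probe set and never between genes. Among genes under the level filter, ratios from the 2 brightest probe sets of a gene differed with an SD, divided by the square root of 2, of 0.759 on the log2 scale for EB over ESC. That spread was 0.451 for N1 over EB, 0.544 for N2 over N1, 0.434 for N3 over N2 and 0.827 for N3 over ESC. It is a spread between probe sets of the same RNA, not between replicates.

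The arrays differed in RNA quality. The 3' to 5' signal ratio of the actin control was 1.73 at ESC, 15.2 at EB, 5.43 at N1, 25.2 at N2 and 8.63 at N3, and that of the GAPDH control 1.94, 2.78, 1.69, 7.1 and 2.1 in the same order. N2 was highest by both, while by GAPDH the other arrays lay close together. Of 674 probe sets with names starting NC-, 61 reached 100 in ESC and 10 to 22 on the other arrays. Of 5 stem cell genes measured, 4 were at least 2-fold lower in N3 than in ESC, POU5F1 from 28621 to 14.7, and NANOG was higher, from 1047 to 2155. Of 6 neuron genes 4 were higher in N3, DCX from 186 to 10607, while SYT1 was at 4177 in ESC and 2985 in N3. Of 7 serotonin neuron genes with a probe set, TPH1 and TPH2, which make serotonin, and LMX1B lay below 100 on every array, and FEV did in N2 and N3. GATA2, GATA3 and SLC18A2, which other cells use too, were above 100 in N2 and N3, with GATA3 at 1436 and 895. Muscle genes were high in N3, with MYH3 at 14054. In such mixed cultures, fewer cells of a type and less RNA per cell cannot be told apart.

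Members passed 2-fold most often between stem cells and the later stages. In EB over ESC, 18 of 106 measured members were at least 2-fold higher (17%) and 24 lower (22.6%), beside 14% higher and 13.5% lower among all named genes under the same filter. In N1 over EB, 8 of 104 were higher and 0 lower, beside 5.61% and 2.4%. In N2 over N1, 9 of 109 were higher and 8 lower, beside 5.57% and 7.18%. In N3 over N2, 6 of 108 were higher and 3 lower, beside 5.22% and 2.4%. In N3 over ESC, 27 of 112 were higher (24.1%) and 25 lower (22.3%), beside 20% and 19.1%. The median log2 ratio of the members was -0.32 in EB over ESC, where that of all genes was 0.02, and lay between -0.03 and 0.04 in the other comparisons. In EB over ESC the median of the members was 0.26 with equal array medians (all genes 0.51) and -0.03 with a level filter of 500 (all genes 0.09). The comparisons share arrays and are not independent. Of the 24 members lower in EB, 7 had reached the level filter on ESC alone, so the filter favoured such a call.

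The direction of these counts moved with the scaling. The higher share of the members past 2-fold in EB over ESC, 42.9%, became 54.5% after quantile normalisation and 68% with equal array medians. Among all genes it was 50.8%, 54.7% and 80%. For N1 over EB it went from 100% to 71.4% and 20.8% under the same 2 scalings, beside 70.1%, 52.1% and 25% among all genes. For N3 over N2 it went from 66.7% to 50% under each and 83.3% with hybridisation controls, beside 68.6%, 59.2%, 54.4% and 86.3%. For N2 over N1 it went from 52.9% to 65% with equal medians and 6.06% with hybridisation controls, beside 43.7%, 54.7% and 6.85% among all genes, whose median went from -0.04 to -0.62 with those controls. For N3 over ESC it went from 51.9% to 65.3% with the same controls, beside 51.2% and 63.6%. The members' shares moved the same way as those of all genes. The median of all genes in N1 over EB, -0.04, moved to -0.41 with equal medians and to 0.43 with hybridisation controls.

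**Figure D1:**
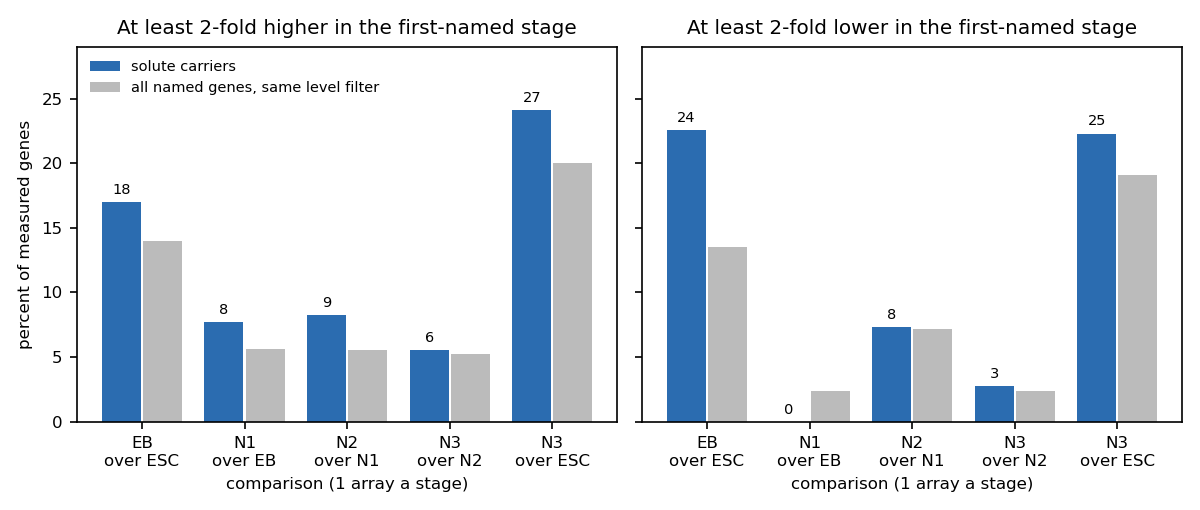
Bars give the percent of measured genes at least 2-fold higher (left) or lower (right) in the first-named stage, for the solute carriers (blue, with the number of genes above each bar) and for all named genes under the same level filter (grey), with 1 array a stage. Bars are tallest where ESC is compared, with 22.6% of members and 13.5% of all genes lower in EB than in ESC.

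Courses over the 5 arrays were sorted into shapes that were defined after the values were seen. For 13 members ESC was at least 2-fold above every later stage (11.5%, beside 5.96% of all genes), and for 8 it was at least 2-fold below every later stage (7.08%, beside 7.33%). For 11, EB was at least 2-fold above both ESC and N3 (9.73%, beside 3.8%). For another 11, N2 and N3 were each at least 2-fold above both ESC and EB (9.73%, beside 5.36%). Signals were higher at each of the 4 steps and at least 2-fold higher in N3 than in ESC for 6 members (5.31%, beside 3.9%). The whole range stayed under 2-fold for 32 members (28.3%, beside 37.8%). By stage of the highest signal, 47 members were highest at ESC, 17 at EB, 8 at N1, 16 at N2 and 25 at N3. Among all genes these stages held 33.7%, 21%, 10.8%, 14.3% and 20.2%. The stage of the highest signal also moved with the scaling, since equal medians put 40 members highest in EB and hybridisation controls put 40 highest in N1. The matching shares of all genes under those scalings are not given here.

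**Figure D2:**
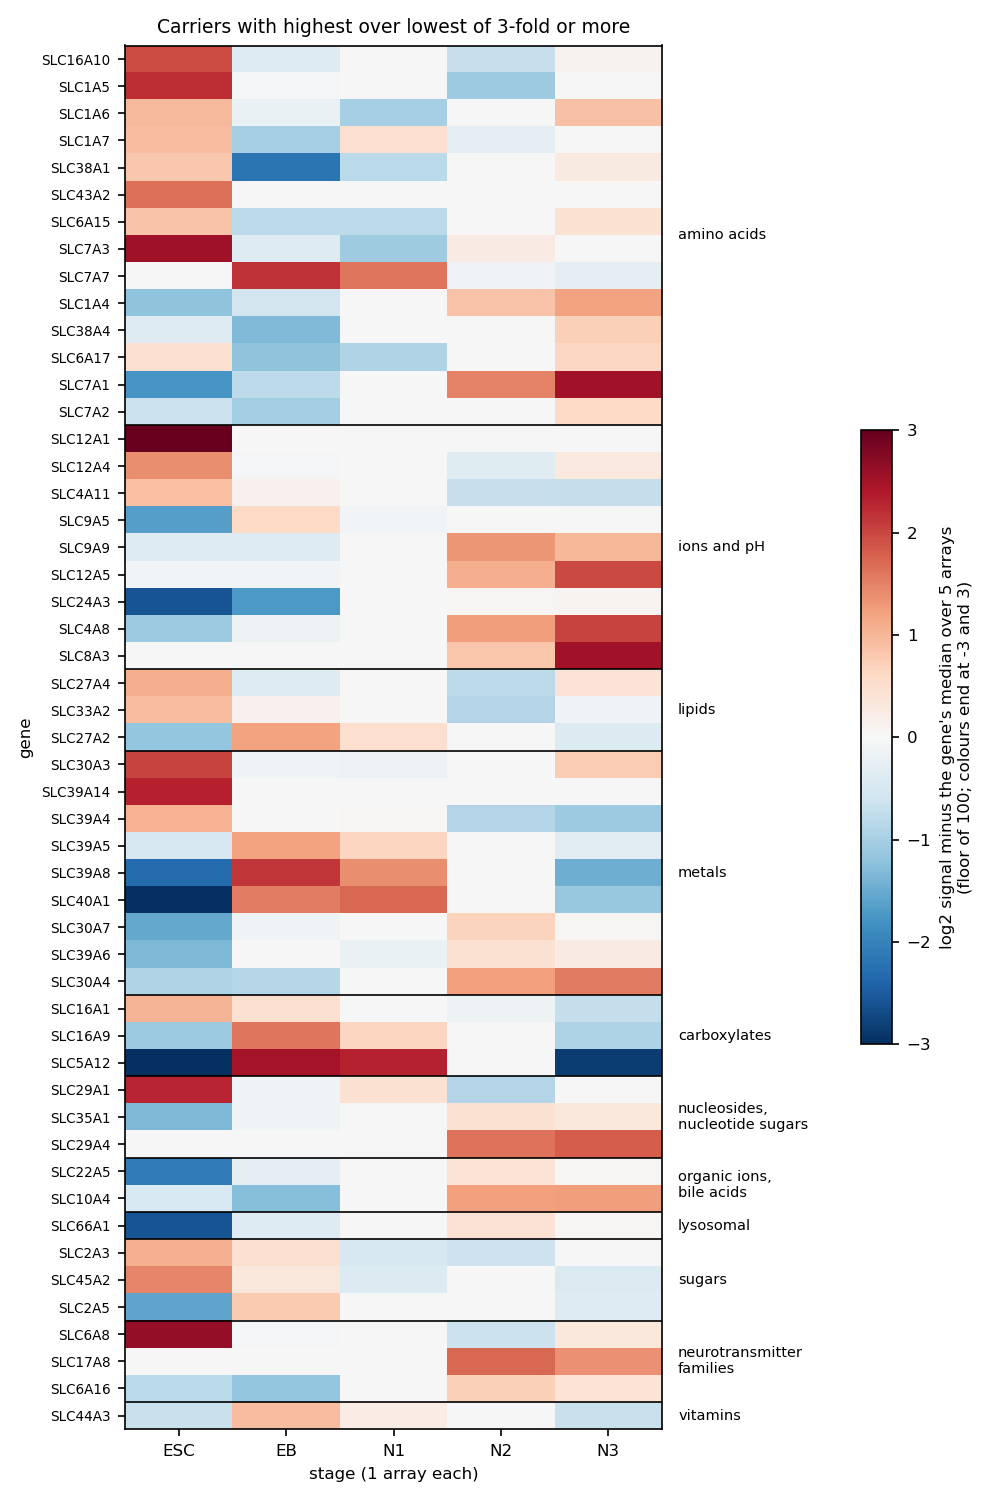
Rows are the 51 members whose highest signal was 3-fold or more above their lowest, grouped by substrate, and columns are the 5 stages with 1 array each. Colour gives the log2 signal, floored at 100, minus the gene's own median over the 5 arrays. Amino acid carriers are mostly red in ESC, SLC5A12, SLC39A8 and SLC40A1 are red in EB and N1, and several ion carriers are red in N2 and N3.

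Amino acid carriers made up the largest group, with 24 members of 37 genes that have a probe set. EB lay 2-fold or more below ESC for 10 of 24 and above it for 2, with a median log2 ratio of -0.61, beside 13.5% lower and 14% higher among all genes. SLC38A5 and SLC43A2, among the 10, reached the level filter on ESC alone. Under equal medians the split was 9 lower and 6 higher with a median of -0.12. All genes then had 6.87% lower, 27.5% higher and a median of 0.51. The other scalings kept 10 lower, beside 12% of all genes after quantile normalisation and 10.9% with hybridisation controls. In N3 over ESC 4 were higher and 5 lower, beside 20% and 19.1% of all genes, so the lower calls of EB were not all present at the end.

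SLC7A3, a carrier of arginine and lysine, had a signal of 5352 at ESC, 702 at EB, 435 at N1, 1083 at N2 and 915 at N3. It was 7.62-fold lower in EB than in ESC, and stayed below the stem cell level at every later stage. SLC7A1, a related carrier of the same cationic amino acids, took the opposite course, with 95.1 at ESC, 198 at EB, 342 at N1, 966 at N2 and 1968 at N3. Its signal stood higher at each stage than at the one before and ended at least 19.7-fold higher in N3 than in ESC. SLC7A2, a further cationic amino acid carrier of that family, was 2.34-fold higher in N3 on the probe set used, but with the median of its 5 probe sets the log2 ratio was -0.13.

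Carriers of glutamine and small neutral amino acids also divided. SLC1A5, which exchanges glutamine for other neutral amino acids, had 3042 at ESC, 638 at EB, 659.9 at N1, 311 at N2 and 661 at N3. ESC was high, the 4 later arrays lay far below it, and N2 was lowest. SLC38A1, a sodium-coupled glutamine carrier found in neurons, had 1141 at ESC, 142 at EB, 372 at N1, 653 at N2 and 787 at N3. It was 8.04-fold lower in EB than in ESC and higher again at each later step, so N3 lay 1.45-fold below ESC. SLC1A4, which carries serine and alanine, had 299.7 at ESC, 466 at EB, 689 at N1, 1249.7 at N2 and 1590.5 at N3, a higher value at each step. Its 3 other probe sets were dim, the brightest reading 195 at ESC, 49.1 at EB, 133 at N1, 85.6 at N2 and 137 at N3, and with the median of its probe sets the log2 ratio of N3 over ESC was -0.14.

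SLC16A10, which lets aromatic amino acids out of cells, was 5.04-fold lower in EB (1560.0 at ESC, 309.5 at EB, 403 at N1, 251 at N2 and 436 at N3). Its other probe set was likewise highest in ESC, with 648 at ESC, 124 at EB, 116 at N1, 91.2 at N2 and 108 at N3. SLC7A7, the light chain of an exchanger that moves cationic amino acids out of gut and kidney cells, was instead highest in EB, with 406 at ESC, 1835 at EB, 1233 at N1, 376 at N2 and 329 at N3. The second probe set of SLC7A7 was also highest in EB (308 at ESC, 483 at EB, 415 at N1, 111 at N2 and 165 at N3). The lysosomal arginine sensor SLC38A9 was 2.7-fold higher in EB, whereas SLC7A11, which imports cystine for glutathione, ranged only from 1784 in EB to 2673 in ESC.

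The other members at least 2-fold lower in EB were SLC1A6 and SLC1A7, both glutamate carriers, SLC6A15 and SLC6A17, both neutral amino acid carriers of neurons, SLC38A5 and SLC43A2. Their ESC signals were between 278 and 389.8, and EB lay under the floor for all of them except SLC1A6. With a floor of 200 each of these 6 calls fell under 2-fold. SLC6A17 and SLC1A6 were back near the ESC level in N3, at 355 and 366. SLC38A4 was 2.15-fold higher in N3 on its main probe set, but another read 1114 at ESC, 16.3 at EB, 33.1 at N1, 21.0 at N2 and 35.3 at N3, so its direction depends on the probe set.

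**Figure D3:**
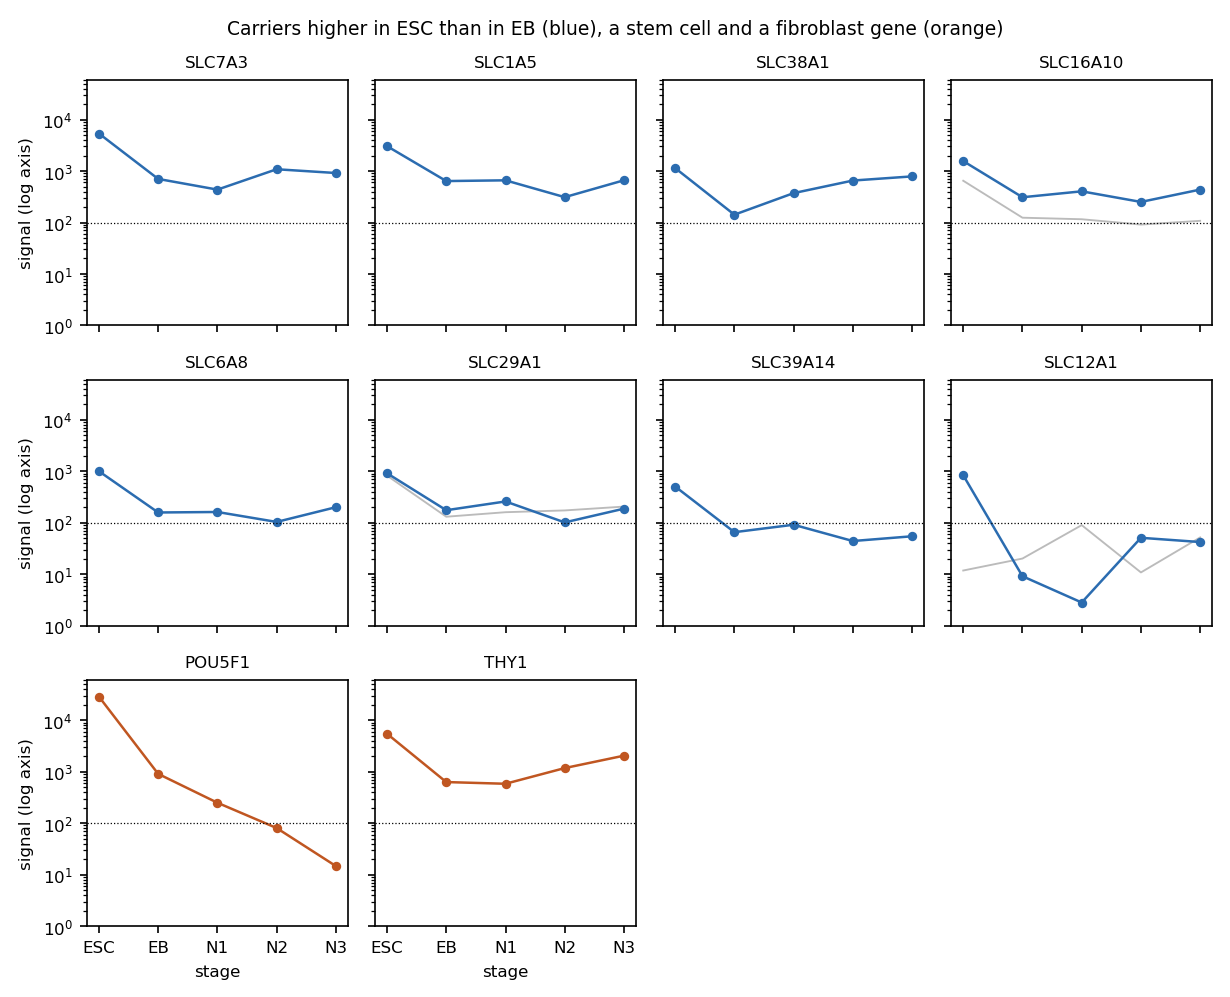
Panels show the signal (log axis) at the 5 stages, 1 array each, for 8 carriers higher in ESC than in EB (blue) and for POU5F1 and THY1 (orange). Grey lines are the gene's other probe sets and the dotted line is the floor of 100. In each blue line ESC is the highest point, and SLC38A1 climbs again from EB to N3.

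Stem cell RNA was also where several carriers of other substrates were highest. SLC6A8, the creatine carrier, had 1004 at ESC, 159 at EB, 162 at N1, 104 at N2 and 201 at N3 and was 6.32-fold lower in EB, on a probe set marked as able to bind related transcripts. SLC29A1, which equilibrates nucleosides across the membrane, was 5.22-fold lower in EB (917 at ESC, 176 at EB, 260.0 at N1, 102 at N2 and 188 at N3), and its other probe set was also highest in ESC (825 at ESC, 131 at EB, 161 at N1, 174 at N2 and 207 at N3). The main probe set of SLC29A1 was 2.55-fold lower in N2 than in N1, which the other did not show. SLC39A14, a zinc and iron importer, was 508 in ESC and under the floor at all later stages, hence at least 5.08-fold lower in EB. SLC12A1, the sodium, potassium and chloride carrier of the kidney, was 839 in ESC and at most 51.2 later, while its other probe set stayed below the floor on every array.

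ESC was grown on mouse feeder cells, and their part in the ESC signals was not measured. Fibroblast and matrix markers (5 of 6 with a probe set) summed to 13449.5 in ESC and to between 29896 and 49573 later. Among them THY1 was highest in ESC, at 5443, while DCN and LUM were under the floor there. Other probe sets of the members, those not used to represent the gene, were highest in ESC for 46 of 78 at 100 or more (59%), beside 45% of 7649 for all genes.

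Metal carriers had 16 members of 20 genes with a probe set, among them SLC40A1 and SLC39A8. In EB over ESC 5 were at least 2-fold higher and 4 lower, beside 14% and 13.5% of all genes. Under the other scalings between 5 and 7 were higher, beside 14.4% to 27.5% of all genes. SLC40A1, ferroportin, the only known iron exporter, had 25.8 at ESC, 2521 at EB, 2868 at N1, 872 at N2 and 398 at N3. It was at least 25.2-fold higher in EB and then lower in N2 and N3, yet N3 remained above the ESC array. A second probe set put the arrays from N1 down to ESC in the same order, at 136 at ESC, 841 at EB, 973 at N1, 227 at N2 and 171 at N3. SLC39A8, an importer of zinc and manganese, had 423 at ESC, 9321 at EB, 5539 at N1, 2104 at N2 and 761 at N3. It was 22.0-fold higher in EB, then lower at every step, and one other probe set above the floor also peaked in EB (209 at ESC, 808 at EB, 358 at N1, 68.0 at N2 and 62.2 at N3).

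Zinc importers of the same family took different courses. SLC39A5 was 3.2-fold higher in EB (173 at ESC, 555 at EB, 378 at N1, 240.4 at N2 and 189 at N3), and SLC39A6 2.56-fold higher in EB and 3.05-fold in N3, although with the median of its 4 probe sets the log2 ratio of SLC39A6 in EB over ESC was -0.49. SLC39A4, the zinc importer of the gut, went the other way, with 4796 at ESC, 2314 at EB, 2355 at N1, 1249.9 at N2 and 1088 at N3, so ESC was highest and N3 4.41-fold lower. Its probe set may bind related transcripts, and its EB call lay under 2-fold with equal medians or hybridisation controls. SLC39A3 was higher at each stage than at the one before, from 254 in ESC to 643 in N3.

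Zinc exporters also took different courses. SLC30A4, which moves zinc into vesicles, had 75.3 at ESC, 102 at EB, 186 at N1, 434 at N2 and 544 at N3, with ESC under the floor and N3 at least 5.44-fold higher. SLC30A7, of the Golgi, was 2.96-fold higher in N3 and highest in N2 (292 at ESC, 782 at EB, 845 at N1, 1341 at N2 and 864 at N3). One of its other probe sets ran alike, with 218 at ESC, 639.8 at EB, 641 at N1, 889 at N2 and 791 at N3. SLC30A3, which loads zinc into synaptic vesicles, was highest in ESC, at 455 at ESC, 103 at EB, 36.1 at N1, 112 at N2 and 191 at N3, and N3 was 2.38-fold lower than ESC. The copper importer SLC31A1 went from 1249 in EB to 488 in N3, and its 3 probe sets were all lowest in N3 or N2.

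Lactate and other carboxylate carriers had 7 members of 15 genes with a probe set. SLC5A12, a sodium-coupled lactate carrier of kidney and gut, had 54.2 at ESC, 7545 at EB, 6595 at N1, 1339.7 at N2 and 186 at N3. EB and N1 were high, ESC lay under the floor, and EB was at least 75.5-fold higher. N2 was then 4.92-fold lower than N1 and N3 7.2-fold lower than N2. SLC16A9, a relative of the lactate carriers, was 6.57-fold higher in EB and lower at each later stage (568 at ESC, 3731 at EB, 1895 at N1, 1220.1 at N2 and 637 at N3). Both genes have 1 probe set.

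The lactate carrier SLC16A1 was lower at every step, with 4729.9 at ESC, 3261 at EB, 2348 at N1, 2125 at N2 and 1434 at N3, and ended 3.3-fold lower in N3. Its 2 other bright probe sets were also highest in ESC, one with 7181 at ESC, 1742 at EB, 1295 at N1, 1016 at N2 and 934 at N3. SLC16A3, the lactate exporter of glycolytic cells, had 902 at ESC, 619 at EB, 521 at N1, 562 at N2 and 1245 at N3, so N3 was the highest array and 2.21-fold higher than N2. A second probe set of SLC16A3 was highest in ESC instead (1089.6 at ESC, 123 at EB, 333 at N1, 152 at N2 and 496 at N3) but also higher in N3 than in N2. SLC16A4 and SLC16A5, of the same family, were lowest in N3, at 126 and 241, from highest values of 252 in EB and 397 in ESC.

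Sugar carriers had 12 members of 24 genes with a probe set. The neuronal glucose carrier SLC2A3 had 22574 at ESC, 15182 at EB, 7774 at N1, 7074 at N2 and 10837 at N3. It was highest in ESC, lowest in N2 and 2.08-fold lower in N3 than in ESC, a ratio that stayed short of 2-fold under each of the 3 other normalisations. Its 3 other probe sets were also highest in ESC. SLC2A5, the fructose carrier, was 5.1-fold higher in EB on its main probe set (127 at ESC, 648 at EB, 378 at N1, 384 at N2 and 289 at N3), while a second was highest in ESC (331 at ESC, 118 at EB, 235 at N1, 141 at N2 and 165 at N3), and the median over its probe sets gave a log2 ratio of -0.30. SLC45A2, a melanosome carrier of pigment cells, had 31246 at ESC, 14332 at EB, 8483 at N1, 11291 at N2 and 8320.0 at N3 on 1 probe set while its other 2 never reached 100, so what that probe set measures is uncertain. SLC5A2, the kidney glucose carrier, reached the level filter on ESC alone (265 at ESC, 92.3 at EB, 109 at N1, 101 at N2 and 47.0 at N3), and SLC45A3 was highest in N2 at 527. SLC50A1 was 2.11-fold lower in N3. In EB over ESC 1 of the 12 members was at least 2-fold higher, 2 were lower and 9 lay within 2-fold, beside 14% higher and 13.5% lower among all genes. In N3 over ESC 1 was higher and 4 were lower, beside 20% and 19.1% of all genes.

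Ion carriers had 19 members of 43 genes with a probe set. In N3 over ESC 7 of 18 were at least 2-fold higher and 5 lower, beside 20% and 19.1% of all genes. Under every scaling 7 or 8 were higher, beside 18.5% to 23.8% of all genes. SLC12A5, the neuronal chloride exporter that makes GABA inhibitory, had 29.1 at ESC, 87.6 at EB, 106 at N1, 227 at N2 and 419 at N3. It was near or under the floor until N1 and higher in N2 and N3, and N3 was at least 4.19-fold higher. SLC4A8, a sodium-driven bicarbonate exchanger of neurons, had 12.1 at ESC, 189.9 at EB, 213 at N1, 507 at N2 and 873 at N3 and was at least 8.73-fold higher in N3. A second probe set of SLC4A8 was likewise highest in N3 (64.2 at ESC, 35.9 at EB, 104 at N1, 279 at N2 and 396 at N3). SLC4A10, its close relative, passed the floor only in N2 and N3, at 136 and 245.

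Calcium exchangers appeared at different times. SLC24A3, which trades calcium and potassium for sodium, had 11.6 at ESC, 183 at EB, 604 at N1, 620.2 at N2 and 639 at N3. It was under the floor in ESC, 3.3-fold higher in N1 than in EB, and level from N1 to N3. SLC8A3, the sodium and calcium exchanger of brain and skeletal muscle, had 46.9 at ESC, 47.4 at EB, 49.4 at N1, 177 at N2 and 574 at N3. It was under the floor through N1 and 3.24-fold higher than N2 in N3. In the same step the muscle gene MYH3 was 4.84-fold higher and the neuron gene TUBB3 4.17-fold higher. There 4 of 6 muscle and 1 of 6 neuron genes were at least 2-fold higher, beside 5.22% of all genes. The part of either cell type in the SLC8A3 signal was not tested. The other probe set of SLC8A3 was dim and passed the floor in ESC alone (117 at ESC, 5.84 at EB, 62.7 at N1, 74.6 at N2 and 98.9 at N3). SLC9A9, a proton exchanger of endosomes, was 2.52-fold higher in N2 (18.5 at ESC, 73.5 at EB, 130.4 at N1, 328 at N2 and 262 at N3). SLC9A5, a proton exchanger of neurons, was already 4.77-fold higher in EB and level from N1 on (132 at ESC, 628 at EB, 393 at N1, 421 at N2 and 415 at N3). SLC4A7, a bicarbonate carrier, ranged from 7693 to 9577 on its main probe set, but 2 of its others passed 2-fold in opposite directions in N3 over ESC. The brighter of these read 6693 at ESC, 5389 at EB, 4094 at N1, 2473 at N2 and 2671 at N3, and the other 744 at ESC, 1103 at EB, 1459.5 at N1, 2598 at N2 and 2311 at N3.

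The ion carriers lower in N3 than in ESC were SLC12A1, the potassium and chloride carrier SLC12A4 (2.14-fold), the phosphate carriers SLC20A1 (2.08-fold) and SLC34A3 (2.41-fold), and SLC4A11 (3.03-fold). SLC20A1 was high in both ESC and EB (2385 at ESC, 2319.7 at EB, 1205 at N1, 1502 at N2 and 1148 at N3), and with the median of its 2 probe sets the log2 ratio of N3 over ESC was 0.14. The other probe set of SLC4A11 was also highest in ESC, with 237 at ESC, 88.4 at EB, 61.0 at N1, 46.2 at N2 and 54.2 at N3. The N3 calls of SLC12A4 and SLC20A1 stayed short of 2-fold with equal medians and with hybridisation controls.

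Transmitter carriers had 5 members of 16 genes with a probe set. In N3 over ESC 3 of the 5 were at least 2-fold higher and 1 lower, beside 20% and 19.1% of all genes. The count of 3 higher held under every scaling, beside 18.5% to 23.8% of all genes. The lower member was the creatine carrier SLC6A8, at 5.0-fold, grouped here by its family. SLC17A8, which loads glutamate into vesicles and occurs in serotonin neurons, had 43.9 at ESC, 43.3 at EB, 93.8 at N1, 328 at N2 and 259 at N3. It passed the floor only in N2 and N3. SLC18A1, a vesicular monoamine carrier of endocrine cells, had 32.4 at ESC, 79.3 at EB, 158 at N1, 192 at N2 and 274 at N3, with the highest value in N3. SLC6A16, a carrier of unknown substrate, was highest in N2 (128 at ESC, 98.6 at EB, 223 at N1, 363 at N2 and 297 at N3). With a floor of 200 the calls of these 3 in N3 over ESC fell under 2-fold. SLC6A3, the dopamine carrier, ranged from 189 to 332 with no stage 2-fold above another.

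Among carriers of organic ions and related compounds, 10 were members of 25 genes with a probe set, and 4 were at least 2-fold higher in N3 than in ESC and 1 lower, beside 20% and 19.1% of all genes. SLC10A4, a vesicle protein of cholinergic and monoamine neurons, had 225 at ESC, 127 at EB, 306 at N1, 721 at N2 and 729.9 at N3. It was lowest in EB and about equal in N2 and N3, 3.25-fold higher than in ESC. SLC22A17, a receptor for lipocalin-bound iron, had 1663 at ESC, 1333 at EB, 1708 at N1, 3209 at N2 and 3738 at N3. SLC22A23 was 2.74-fold higher in N3 on its main probe set, but the median of its 3 probe sets gave a log2 ratio of -0.37. SLC22A5, the carnitine importer, was 3.5-fold higher in EB and stayed high (170.2 at ESC, 595 at EB, 734 at N1, 979.7 at N2 and 751 at N3). SLC47A1, which exports organic cations from liver and kidney cells, was highest in EB (288 at ESC, 803 at EB, 498 at N1, 511 at N2 and 305 at N3), and SLC10A3 was 2.45-fold lower in N3. SLC10A7 was highest in N2 (168 at ESC, 268 at EB, 309.8 at N1, 495 at N2 and 310.3 at N3). SLC29A4, a monoamine carrier of the nucleoside family, had 37.2 at ESC, 21.5 at EB, 75.1 at N1, 312 at N2 and 354 at N3 and passed the floor only in N2 and N3.

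Some carriers of the Golgi and lysosome were higher at every stage after ESC on their main probe sets. SLC35A1, which brings activated sialic acid into the Golgi, had 804 at ESC, 1844 at EB, 2033 at N1, 2805 at N2 and 2524 at N3 and was 3.14-fold higher in N3. The next brightest of its 4 probe sets followed it, with 220.0 at ESC, 1299 at EB, 1401 at N1, 2342 at N2 and 1558 at N3. Another did not, at 244 at ESC, 93.8 at EB, 209 at N1, 132 at N2 and 269 at N3. SLC66A1, which lets cationic amino acids out of lysosomes, had 191 at ESC, 885 at EB, 1154 at N1, 1570.4 at N2 and 1183 at N3 and was 4.64-fold higher in EB, while its other probe set stayed below 100. SLC35A4, of the same family as SLC35A1, was 2.1-fold lower in N3. SLC35A3 had 394 at ESC, 262 at EB, 436 at N1, 225 at N2 and 274 at N3. The lysosomal nucleoside carrier SLC29A3 had 637 at ESC, 464 at EB, 471 at N1, 472 at N2 and 368 at N3, and SLC66A3 1162 at ESC, 989.8 at EB, 1033 at N1, 1548 at N2 and 1319 at N3.

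Vitamin and choline carriers had 6 members of 16 genes with a probe set, and 2 were at least 2-fold lower in N3 than in ESC and 0 higher, beside 19.1% and 20% of all genes. They were SLC5A6, which takes up biotin and pantothenate (1902 at ESC, 1448 at EB, 918 at N1, 855 at N2 and 674 at N3), and SLC19A1, the folate carrier (319 at ESC, 220.3 at EB, 170.2 at N1, 129 at N2 and 139 at N3). Both were lower at almost every step. SLC44A3, of the choline carrier family, was 3.01-fold higher in EB and at 144 in N3, the same as the 144 of ESC. The riboflavin carrier SLC52A2 went from 3133 in ESC to between 1488 and 1789.6 later. SLC44A2, of the choline carrier family, was highest in N3 at 834 on its main probe set but in ESC on the others, and the heme carrier SLC48A1 ranged from 1227 to 1743. Among 6 members that handle fatty acids and acetyl-CoA, SLC27A2, a fatty acid carrier of liver and kidney, was at least 5.16-fold higher in EB (74.9 at ESC, 516 at EB, 316 at N1, 223 at N2 and 169 at N3). SLC27A4 was lower there by 2.79-fold, and SLC33A2 was 2.08-fold lower in N3. The bile acid enzyme SLC27A5 went from 358 in ESC to 134 in N2, while SLC27A1, a fatty acid carrier of muscle and fat, ranged from 268 to 496. SLC33A1, which brings acetyl-CoA into the endoplasmic reticulum, ranged from 473 to 832. The N3 calls of SLC33A2, SLC35A4 and SLC50A1 stayed short of 2-fold under equal medians and under hybridisation controls.

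The 11 carriers with EB at least 2-fold above both ESC and N3 were SLC5A12, SLC39A8, SLC40A1, SLC16A9, SLC7A7, SLC27A2, SLC2A5, SLC39A5, SLC44A3, SLC47A1 and SLC17A4. All 11 passed 2-fold in EB over ESC under every scaling, but the shape itself required that ratio in the main one. The median of all genes in EB over ESC also rose, from 0.02 to 0.51 with equal medians and 0.13 with hybridisation controls. This agreement is therefore no separate support. Several of the 11 carriers are known from absorptive or liver-type cells, and several markers of such cells were also highest in EB. Liver and visceral endoderm markers (6 of 8 with a probe set) summed to 2015 at ESC, 64310.1 at EB, 54999 at N1, 16313 at N2 and 3245 at N3. FGB was at 3.48 and FGG at 6.87 in ESC, and both were under the floor again in N3. AFP, another gene of the list, was instead highest in ESC, at 991, and SERPINA1 in N1, at 13569. PDZK1, a scaffold for carriers in kidney and liver membranes, had 41.0 at ESC, 8498 at EB, 2498 at N1, 737 at N2 and 93.0 at N3, and its second probe set 80.8 at ESC, 3781 at EB, 1157 at N1, 227 at N2 and 87.6 at N3. LRP2, an endocytic receptor of the same epithelia, had 76.2 at ESC, 2697 at EB, 1156 at N1, 821 at N2 and 678 at N3. The summed signal of the kidney and gut list (6 of 6) was not highest in EB, at 8082 in ESC and 7010.2 in EB. Of the ESC sum KRT8 gave 4238 and VIL1 3475. In EB over ESC 3 of 5 measured genes of this list were at least 2-fold higher and 1 lower, beside 14% and 13.5% of all genes. The lower gene was VIL1, whose other probe sets above the floor were instead highest in EB, one at 121 in ESC and 932 in EB. Erythroid markers (6 of 8), from cells that handle much iron, summed to 528 in ESC, 1818 in EB, 7468 in N1 and 266 in N3. The N1 sum came mostly from HBE1 at 2077 and HBG2 at 5079, while ALAS2 was the largest term in EB, at 789. The part of all these cell types in the carrier signals was not tested.

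The 11 carriers with N2 and N3 each at least 2-fold above both ESC and EB were SLC7A1, SLC1A4, SLC4A8, SLC24A3, SLC12A5, SLC9A9, SLC30A4, SLC10A4, SLC29A4, SLC17A8 and SLC6A16. All 11 were at least 2-fold higher in N3 than in ESC under every scaling, which the shape already required in the main one. Agreement in N3 over ESC is therefore no separate support. With hybridisation controls 2 of the 11 carriers rather than 8 passed 2-fold in N2 over N1, beside 1.92% rather than 5.57% of all genes higher. Neuron markers (6 of 7 with a probe set) summed to 9086 at ESC, 3763 at EB, 19545 at N1, 27872 at N2 and 50608 at N3. Astrocyte and radial glia markers (4 of 6) summed to 1351 in ESC and 7990.3 in N3. Of that N3 sum SLC1A2 gave 2340.0 and SLC1A3 4452, while GFAP was at 911 in ESC and 684 in N3. Muscle markers (6 of 6) summed to 11229 in ESC and 51989.9 in N3. Of that ESC sum ACTC1 gave 10670. In N3 over ESC 5 of the 6 muscle genes were at least 2-fold higher and 0 lower, beside 20% and 19.1% of all genes. None of the 3 marker lists was near 0 in N3, so these courses overlap and their parts in the carrier signals were not tested.

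**Figure D4:**
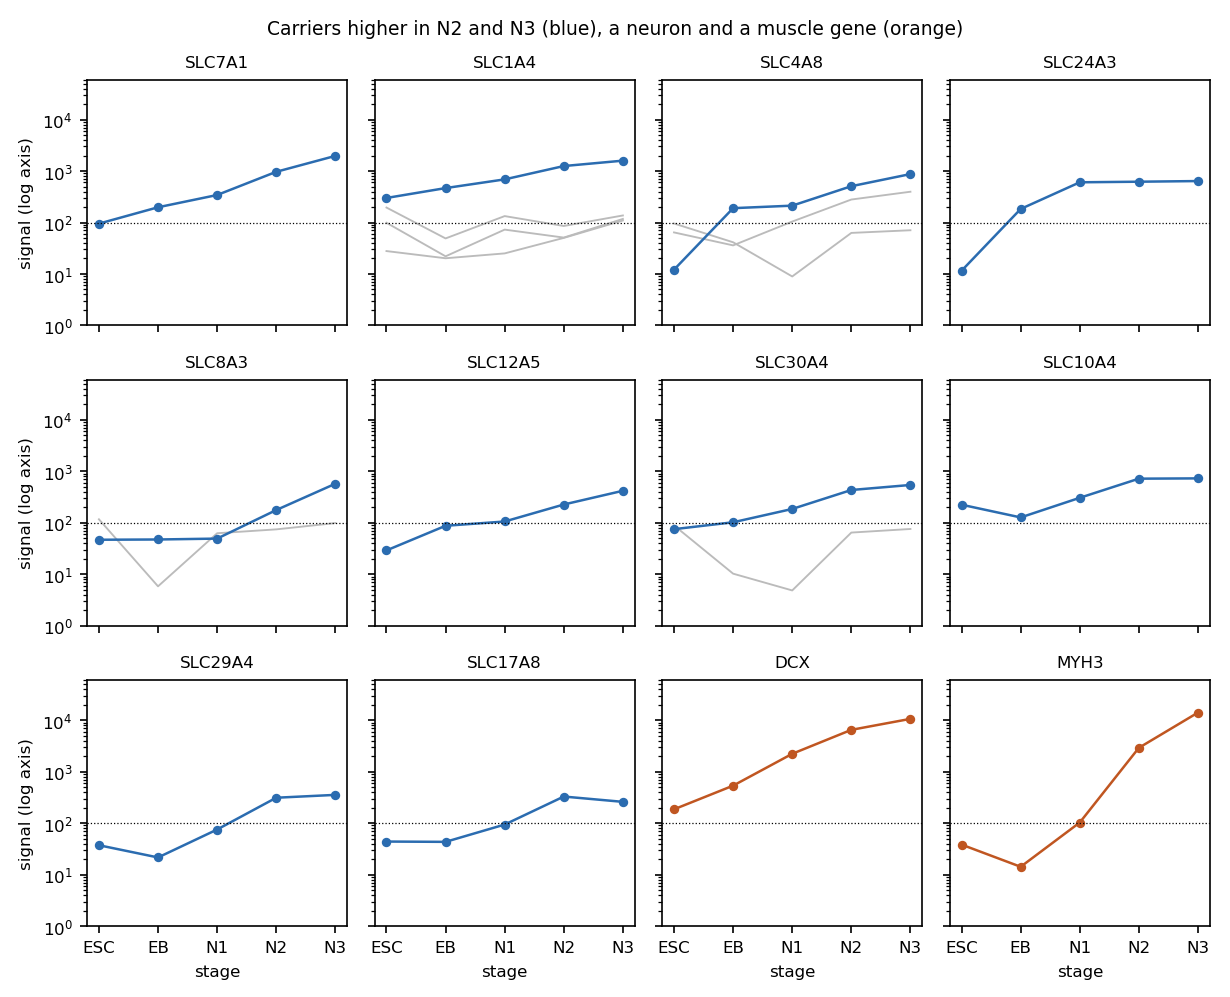
Panels show the signal (log axis) at the 5 stages, 1 array each, for 10 carriers higher late in the culture (blue) and for DCX and MYH3 (orange). Grey lines are other probe sets and the dotted line is the floor of 100. SLC7A1 and DCX climb at every step, SLC24A3 is level from N1 on, and SLC8A3 and MYH3 climb mostly after N1.

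Between the neural stages few carriers passed 2-fold. The 8 higher in N1 than in EB were SLC24A3 (3.3-fold), SLC7A4 (2.77-fold), SLC38A1 (2.63-fold), SLC10A4 (2.41-fold), SLC7A2 (2.09-fold), SLC1A7, SLC38A4 and SLC6A16, the last 3 as bounds. SLC10A4, SLC7A2 and SLC6A16 stayed short of 2-fold after quantile normalisation, and the other probe set of SLC7A4 was lower in N1 than in EB (332 at ESC, 143 at EB, 114 at N1, 197 at N2 and 124 at N3). The largest ratios the other way stayed just short of 2-fold, at 1.97-fold for SLC16A9, 1.95-fold for SLC2A3 and 1.93-fold for SLC20A1. SLC38A10 was 1.69-fold lower in N1 than in EB and stood at 3069 in N3. In N2 over N1, when FGF4 was added, SLC7A1 (2.82-fold), SLC9A9, SLC7A3 (2.49-fold), SLC4A8 (2.39-fold) and SLC10A4 (2.35-fold) led the higher members with both arrays above the floor. All 5 stayed short of 2-fold with hybridisation controls. SLC5A12, SLC40A1 (3.29-fold), SLC7A7 (3.28-fold) and SLC39A8 (2.63-fold) led the lower ones. SLC36A4, an amino acid carrier, was 2.28-fold lower in N2 than in N1, and its other probe set read 872 at ESC, 852 at EB, 898 at N1, 667 at N2 and 739 at N3. Actin signal was 25.2 times as high at the 3' as at the 5' end in N2 and 5.43 times in N1, and the part of RNA quality in these differences was not tested.

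In N3 over N2 the 6 higher members were SLC8A3 (3.24-fold), SLC4A3 (at least 2.83-fold), SLC27A4 (2.22-fold), SLC16A3, SLC1A5 (2.13-fold) and SLC7A1 (2.04-fold). The 3 lower were SLC5A12, SLC39A8 (2.77-fold) and SLC40A1 (2.19-fold). With equal medians SLC1A5 and SLC7A1 stayed short of 2-fold, and with hybridisation controls SLC40A1 did. SLC4A3, a chloride and bicarbonate exchanger of heart and brain, was above the floor only in ESC and N3 (264 at ESC, 11.5 at EB, 80.9 at N1, 93.3 at N2 and 283 at N3).

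Second probe sets gave a check within the same RNA. In EB over ESC 12 members past 2-fold had a second measured probe set, which had the same direction for 10 and also passed 2-fold for 5. In N3 over ESC the numbers were 18, 12 and 9, and for 3 members the second probe set passed 2-fold the other way. Among all genes under the filter the second probe set had the same direction for 78.6% in EB over ESC and 80% in N3 over ESC. It also passed 2-fold that way for 41.7% and 46.7%. In N3 over ESC it passed 2-fold the other way for 76 of 1626. Of the 113 members 53 have a single probe set.

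Mitochondrial carriers of the SLC25 family, read the same way, gave 2 of 28 at least 2-fold higher and 1 lower in EB over ESC, against 18 and 24 of the 106 members, beside 14% and 13.5% of all genes. In N3 over ESC 5 were higher and 7 lower, beside 20% and 19.1% of all genes. No test of that difference was made.

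Genes that work with the carriers were read from lists. The monocarboxylate carrier chaperones BSG and EMB were lower in N3 than in ESC by 2.88-fold and 4.82-fold, as was their client SLC16A1. In the list of chaperones and scaffolds 3 of 3 measured genes were at least 2-fold lower in N3 than in ESC and 0 higher, beside 19.1% of all genes lower. ATP1B1, a subunit of the pump that makes the sodium gradient, was 3.21-fold higher in EB, and the other 5 pump subunits listed were not analysed here. In iron and copper handling 3 of 4 measured genes were at least 2-fold higher in N3 than in ESC and 0 lower, beside 20% of all genes higher. The copper pump ATP7A was 4.31-fold higher, the ferritin light chain FTL 3.36-fold higher and HEPH, the iron oxidase that works with ferroportin, 2.89-fold higher. TFRC, which takes up transferrin iron, was 2.06-fold lower in N1 than in EB. In the amino acid response list 0 of 5 measured genes passed 2-fold in N3 over ESC, where 20% of all genes were higher and 19.1% lower, and ATF4 itself went from 14719.9 in ESC to 9494 in N3. Of 12 measured carriers named outside the SLC scheme, 3 were at least 2-fold higher in N3 than in ESC and 1 lower, beside 20% and 19.1% of all genes, with the brain lipid carrier MFSD2A 4.47-fold higher.

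The filter kept genes that were bright somewhere. Of the 113 members 58 were at 200 or more on all 5 arrays, and 12 on exactly 1 array, namely 8 on ESC alone, 3 on N3 alone and 1 on EB alone. A member that passed on 1 array alone is by construction highest there. Of the 101 carriers left out, 46 were below 100 on every array. Just inside the limit were SLC5A10 with a highest signal of 204 and SLC15A3 with 234, and just outside were SLC7A9 with 196 and SLC23A3 with 192. Of 25 carriers listed for description whatever their value, 10 were members and 6 were below 200 throughout, namely SLC7A5, SLC6A9, SLC17A7, SLC18A3, SLC5A7 and SLC2A2. SLC18A3 and SLC5A7, the vesicular acetylcholine and choline carriers, never passed 134, and SLC17A7, a vesicular glutamate carrier, never passed 100. The other 9, including SLC3A2, SLC12A2, SLC17A6 and SLC32A1, were not analysed here.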

How the data were processed

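The authors deposited linear microarray intensities, with a single value for each probe set on each array. The submitters' processing notes name GCOS 1.0. Its algorithm, scaling target and detection calls were not given in the sources used here. The table holds 52865 probe sets, of which 158 are controls. Each array was rescaled here to a 2% trimmed mean of 500 over the other probe sets, floored at 100 and taken to log2. Among probe sets with 1 symbol in the platform annotation, which can be old, the one highest in mean log2 signal stood for its gene. All 113 members matched a RefSeq gene with the same symbol. No sequences or coordinates are given.

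Calls are ratios of 2-fold or more, because 1 array a stage allows no test. Members, classes and lists were chosen with earlier results of these data known. Named are the 6 members per class with the widest range, the 6 members each way per comparison with the largest ratio on arrays above the floor, and 25 preset carriers. Other members that are named were chosen after their values were seen. The alternatives were 4 scalings, 2 other floors, no floor with log2(value + 1), 2 other choices of probe set, no cross-binding probe sets, a 4-fold threshold and a level filter of 500. The counting was tested on simulated data with known folds. Python 3.11.15, numpy 2.4.6, pandas 2.3.3 and matplotlib 3.10.9 were used.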

Additional observations from a re-analysis of the deposited data

How the results depend on the processing

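Values as deposited, the highest mean linear signal and leaving out cross-binding probe sets left all 15 counts of members within 1.5 times. Quantile normalisation gave 5 higher and 2 lower in N1 than in EB, beside 3.72% and 3.42% of all genes. Equal medians gave 34 higher in EB than in ESC, 5 higher and 19 lower in N1 than in EB, and 40 highest in EB. All genes then had 27.5% higher in EB than in ESC, and 2.98% higher and 8.95% lower in N1 than in EB. Hybridisation controls gave 18 higher in N1 than in EB, 2 higher and 31 lower in N2 than in N1, 10 higher in N3 than in N2, 40 highest in N1 and 8 in N2. All genes then had 15.5% higher in N1 than in EB and 8.67% higher in N3 than in N2. In N2 over N1 they had 1.92% higher and 26.2% lower. Shares of all genes highest at each stage under these scalings, and those for the settings below, are not given here. A floor of 50, no floor and the median of probe sets each gave 1 lower in N1 than in EB, and that median gave 1 lower in N3 than in N2. A floor of 200 gave 15 lower in EB than in ESC, 2 higher in N1 than in EB and 5 higher in N2 than in N1. At 4-fold, EB had 9 higher and 9 lower than ESC, N1 0 higher than EB, N2 0 higher and 1 lower than N1, N3 0 higher and 1 lower than N2, and N3 9 higher and 7 lower than ESC. A level filter of 500, which kept 72 members, gave 11 lower in EB than in ESC, 4 higher in N1 than in EB, 5 higher in N2 than in N1, and 26 highest in ESC, 5 in N1 and 16 in N3. The fewer members and the stricter limit account for lower counts under those 2 settings by construction. A floor of 200 can likewise only make the ratio of a given probe set smaller. For the other settings the cause was not tested.

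Of 1267 log2 ratios of single members past 2-fold recomputed under the alternatives, 1148 stayed past it, 110 fell under it and 9 changed sign. Values as deposited, a floor of 50 and no floor each kept all 128. Those settings could hardly lower a call, so the total says little by itself. A floor of 200 kept 88, with 38 under 2-fold and 1 of changed sign. The median of probe sets kept 94, with 21 under 2-fold and 7 of changed sign. SLC38A4 in N3 over ESC became -2.48 with a floor of 200, -3.48 with the highest mean linear signal and -1.79 with the median of probe sets. That median also turned N3 over ESC for SLC1A4 (-0.14), SLC20A1 (0.14), SLC22A23 (-0.37) and SLC7A2 (-0.13), and EB over ESC for SLC2A5 (-0.30) and SLC39A6 (-0.49). Signals near the floor, and 1 array a stage, limit what these values can show. No paired analysis was possible because each stage has 1 array.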
